A study of Mus musculus with 2 samples.

Results

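Genes that control or build tendon were followed in regenerating mouse muscle: the regulators Scx and Mkx and the matrix or surface genes Tnmd, Fmod, Kera, Chad, Comp, Thbs4, Cilp2 and Angptl7. These 10 of the 19169 genes in the deposited table were chosen by name, with earlier results of the same data known, so their levels are given as a description. Gastrocnemius muscle of male mice was taken on day 14 after cardiotoxin (CTX), a toxin that kills muscle fibers, and single cells were read in droplets, where a unique molecular identifier (UMI) marks each RNA molecule. The first library was labelled WT (C57BL/6J mice after CTX) and the second KO (Gsdme-/- mice after CTX, which lack the pore-forming protein gasdermin E in all tissues). Several mice were used per genotype; pooling is not stated in the sources used here. With 1 library per genotype, genotype and library cannot be told apart, no test between genotypes is possible, and every 95% interval covers counting error only.

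The WT-labelled library held 6354 cells with a median of 5740 UMIs, and the KO-labelled library 7078 cells with a median of 5962.5. Gsdme itself stood at 5.03 CPM (UMIs of a gene for every 1000000 UMIs of the cells) and 4.65 CPM, which is a log2 ratio of KO-labelled over WT-labelled of -0.11 (-0.38 to 0.16). A lower level of the targeted gene was not detectable, so the libraries are called by their labels throughout. They shared 4 barcode sequences. Where values come in pairs, the first is WT-labelled and the second KO-labelled.

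Tendon cells, or tenocytes, sit among collagen fibers where muscle is anchored and make the matrix that passes force on to bone. The transcription factors Scleraxis (Scx) and Mohawk (Mkx) direct their identity, and tenomodulin (Tnmd) is a surface protein that Scleraxis switches on. Fibromodulin (Fmod), keratocan (Kera) and chondroadherin (Chad) are small leucine-rich repeat proteins of the matrix, and Fmod and Kera bind collagen and set how fibrils grow. Comp and Thbs4 are thrombospondins, multi-armed proteins that link matrix molecules, Cilp2 is a matrix protein of cartilage and tendon, and Angptl7 is a secreted angiopoietin-like protein.

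Scleraxis is a basic helix-loop-helix factor, and factors of this class bind E-boxes, with the letters CANNTG, which read alike on both strands. RefSeq's promoter table for GRCm38.p6 held 7 of the 10 genes, and 5 of the 7 had a match within the 250 bases before the start. Of all 32851 starts searched 66.2% had a match as well, so a match does not set these genes apart. The 250 bases are printed 5′ to 3′ on the strand of the gene, with every CANNTG in capitals, for 4 genes that the results turn on. Fmod and Chad were read almost only in tenocyte-like cells, Thbs4 also in other stromal cells, and the UMIs of Angptl7 were the most concentrated in few cells. A match is a run of letters and not a binding site.
Fmod, chr1:134037004-134037253, plus strand: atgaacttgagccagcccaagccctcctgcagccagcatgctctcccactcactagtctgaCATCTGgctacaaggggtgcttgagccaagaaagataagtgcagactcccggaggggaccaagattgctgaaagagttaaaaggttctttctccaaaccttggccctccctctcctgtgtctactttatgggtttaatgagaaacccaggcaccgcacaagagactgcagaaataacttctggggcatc
Chad, chr11:94564797-94565046, plus strand: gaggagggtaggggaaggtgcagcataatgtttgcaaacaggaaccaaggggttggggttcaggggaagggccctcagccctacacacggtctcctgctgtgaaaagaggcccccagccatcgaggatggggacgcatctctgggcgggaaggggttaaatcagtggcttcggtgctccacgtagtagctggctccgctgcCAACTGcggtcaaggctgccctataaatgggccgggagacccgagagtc
Thbs4, chr13:92794819-92795068, minus strand: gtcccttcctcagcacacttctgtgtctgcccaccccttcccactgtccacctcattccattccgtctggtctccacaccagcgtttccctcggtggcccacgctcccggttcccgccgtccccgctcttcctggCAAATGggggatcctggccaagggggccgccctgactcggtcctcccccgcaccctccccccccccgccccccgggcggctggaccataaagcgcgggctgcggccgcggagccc
Angptl7, chr4:148500463-148500712, minus strand: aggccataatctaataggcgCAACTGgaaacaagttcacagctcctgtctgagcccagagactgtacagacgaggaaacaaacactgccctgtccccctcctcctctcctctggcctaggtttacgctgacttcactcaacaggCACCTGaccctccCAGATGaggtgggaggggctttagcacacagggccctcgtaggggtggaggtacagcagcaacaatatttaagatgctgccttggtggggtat
Angptl7 had 3 matches, a number that 12.2% of all starts reached, and the other printed genes had 1 each. None of the 4 stretches met an annotated exon. That of Chad lay within Acsf2 and that of Angptl7 within Mtor, both on the opposite strand, and the gene Scx lies within Bop1, likewise on the opposite strand. Counting by strand is not stated in the sources used here, and without it reads of such pairs cannot be told apart. Mkx overlaps AC148004.2 on the same strand, where counting by strand would not part the reads either.

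All 10 genes had their highest level in 1 cluster of cells, in both libraries. The 10 genes were left out of the clustering but not of the tendon marker list by which the cluster was called tenocyte-like. Their high level in it is thus not independent of its name. All 9 other markers of that list were higher there as well. Their log2 fold over the remaining cells ran from 2.76 for Chodl to 5.83 for Col11a1. The cluster held 416 WT-labelled and 363 KO-labelled cells, with medians of 11800.5 and 11783 UMIs. The study counted cells of this kind among its fibro-adipogenic progenitors (FAPs), the stromal cells of muscle that can form fat and scar and carry the receptor Pdgfra. Pdgfra stood at 31.6 and 46.3 CPM in tenocyte-like cells, at 316 and 298 CPM in FAP-like cells, and at 4.45 and 5.35 CPM in endothelial-like cells.

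**Figure D1:**
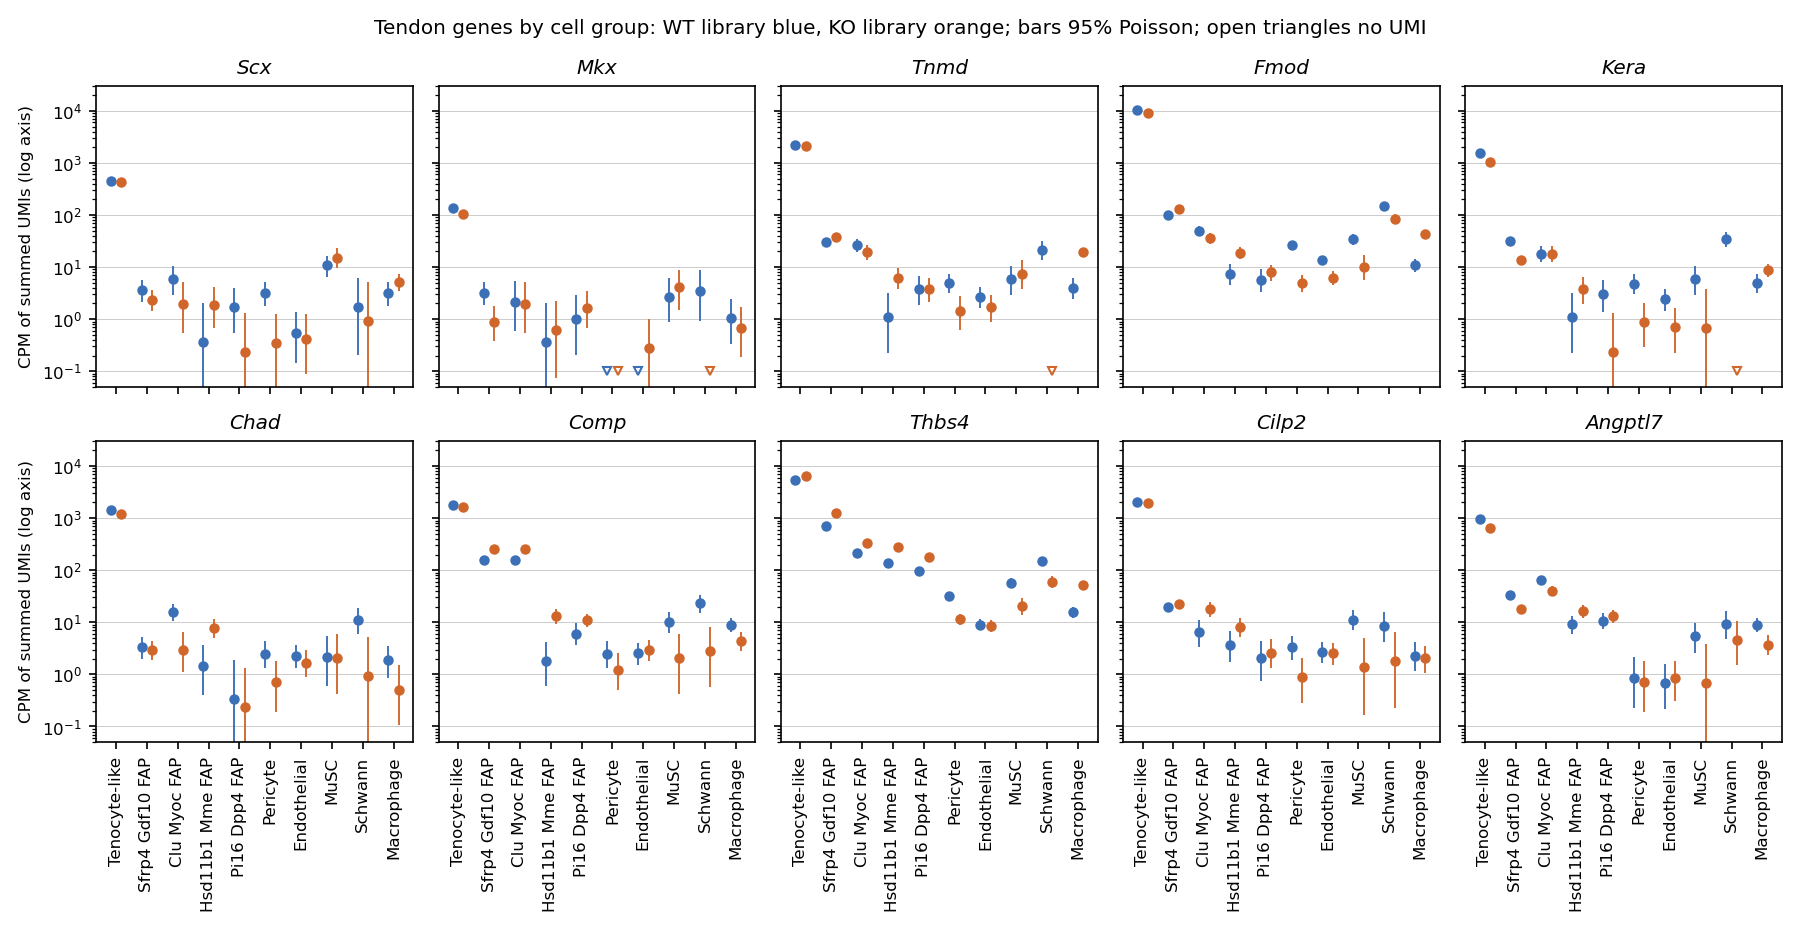
Level of each of the 10 genes in 10 cell groups, as CPM of summed UMIs on a log axis; blue points are WT-labelled, orange points KO-labelled, bars are 95% Poisson intervals and open triangles mark groups with no UMI. Every gene is highest in tenocyte-like cells, and Thbs4 reaches 706 and 1245 CPM in the Sfrp4 Gdf10 subset of FAP-like cells.

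For most of the genes the gap to all other cells was wide. Fmod stood at 10579.9 CPM (10492 to 10668) and 9202 CPM (9113 to 9291) in tenocyte-like cells, against 52.4 and 71.4 CPM in FAP-like cells and 13.6 and 6.198 CPM in endothelial-like cells. Of the UMIs of Chad in the whole library, 98.3% and 97.3% lay in tenocyte-like cells, the highest share among the 10 genes. For Scx, Mkx, Tnmd, Fmod, Kera and Cilp2 this share was 92.4% or more. Endothelial-like cells were taken to lack these genes and to stand in for free RNA, which was not measured or told apart from doublets. The stand-in itself differed between the libraries for Fmod, with a log2 ratio of -1.13 (-1.68 to -0.61), and not detectably for Thbs4, at -0.09 (-0.62 to 0.43). With each cell thinned to 1000 UMIs, at most 1.72% of endothelial-like cells held a UMI of any 1 gene, against 10.1% (Mkx) to 96.6% (Thbs4) of tenocyte-like cells. The median depths of endothelial-like cells before thinning were 4539 and 4243 UMIs, under those of tenocyte-like cells.

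Comp and Thbs4 were spread more widely. Tenocyte-like cells held 87.4% and 70.1% of the Comp UMIs and 82.9% and 66.01% of the Thbs4 UMIs, and for Angptl7 the shares were 91.2% and 84.98%. FAP-like cells held 13.9% and 30.4% of the Thbs4 UMIs and 10.98% and 27.6% of the Comp UMIs. Among stromal cells the level of Thbs4 fell in the order tenocyte-like, Sfrp4 Gdf10, Clu Myoc, Hsd11b1 Mme and Pi16 Dpp4 in both libraries, and no neighbors in this order had overlapping intervals. For Comp the Sfrp4 Gdf10 and Clu Myoc subsets did not differ beyond their intervals, at 159 and 156 CPM WT-labelled and 259 and 259.9 CPM KO-labelled. Schwann-like cells also held Fmod, at 151 and 83.9 CPM, but in 15 of 206 and 17 of 176 cells. In WT-labelled T-like cells Fmod stood at 334 CPM from 2 of 82 cells, and in KO-labelled ones at 2.51 CPM from 1 of 86, so such levels rest on a few droplets.

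Tenocyte-like cells made up a smaller share of the KO-labelled library. Of all cells they were 6.55% (5.95 to 7.18) and 5.13% (4.63 to 5.67), a difference of -1.42 percentage points (-2.23 to -0.614). Of stromal cells, here tenocyte-like plus FAP-like cells, they were 20.1% (18.4 to 21.9) and 14.7% (13.3 to 16.1), a difference of -5.41 percentage points (-7.66 to -3.16). FAP-like cells numbered 1654 and 2108, and their Sfrp4 Gdf10 subset went from 31.4% to 36.9% of stromal cells. A count without clusters differed less: thinned cells with UMIs of at least 2 of the 10 genes were 8.57% and 7.63% of cells, a difference of -0.941 percentage points (-1.93 to 0.0439), and this interval reaches 0. That count takes in 3.89% and 6.08% of FAP-like cells beside 98.03% and 97.4% of tenocyte-like cells.

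**Figure D2:**
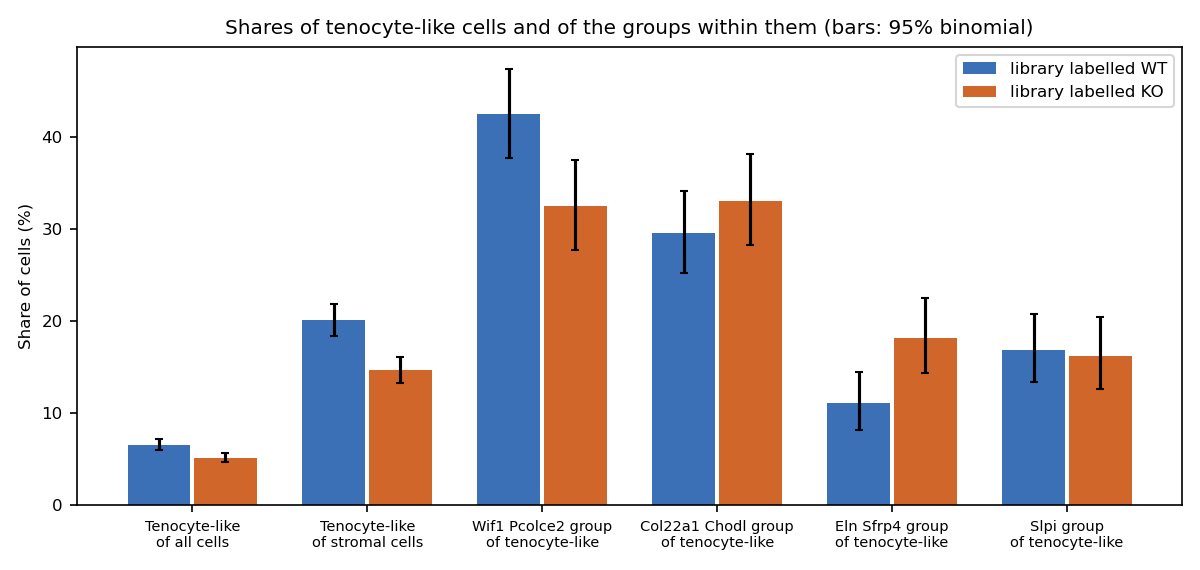
Share of tenocyte-like cells among all cells and among stromal cells, and share of 4 groups among tenocyte-like cells, in percent; blue bars are WT-labelled, orange bars KO-labelled, and error bars are exact 95% binomial intervals. Tenocyte-like cells are 20.1% and 14.7% of stromal cells, and the Wif1 Pcolce2 group is 42.5% and 32.5% of tenocyte-like cells.

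Summed over all cells, 9 of the 10 genes were lower in the KO-labelled library with an interval below 0 and 1, Thbs4, was higher with an interval above 0, against 23.7% and 22% of 17078 genes. By a log2 ratio of 0.5 or more 5 were lower and 0 higher, against 9.37% and 9.29%. Kera went from 192 to 97.2 CPM and Angptl7 from 123 to 67.6 CPM over all cells. These sums mix the number of tenocyte-like cells with the level in each.

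Within tenocyte-like cells the same 9 genes were lower, most of them by little. By 0.5 or more on the log2 scale 2 were lower and 0 higher, against 9.44% and 15.3% of 12223 genes, and the median of the 10 log2 ratios was -0.15, against 0.06 over all genes. Intervals lay below 0 for 9 genes and above 0 for 1, against 9.29% and 14.7%. Each of the 10 genes had at least 1182 UMIs in these cells while 10 were enough for a gene to be counted, and an interval narrows as UMIs grow, so these counts are not on an equal footing with the background. The counts also rest on 46 and 66 cells of the cluster, the Eln Sfrp4 group described later. Its leading genes include several that lead FAP-like subsets, while most of its cells also held Thbs4, Tnmd and Scx. Without this group 4 of the 10 genes had an interval below 0 (Fmod, Kera, Chad and Angptl7) and 1 above (Thbs4), and none differed by 0.5 or more, with Kera at -0.40 (-0.45 to -0.35) and Angptl7 at -0.42 (-0.49 to -0.36). Scx then stood at -0.06, Mkx at -0.17, Fmod at -0.10, Chad at -0.10 and Thbs4 at 0.14, and Tnmd, Comp and Cilp2 between -0.02 and -0.01, all on the log2 scale. Shares over all genes were not counted without the group, so the drop from 9 to 4 cannot be set against that of other genes.

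Of the regulators, Scx differed little per cell and Mkx was lower. Scx stood at 457 CPM (439 to 476) and 428 CPM (409 to 448), with overlapping intervals and a log2 ratio of -0.09 (-0.18 to -0.01). The share of thinned cells with a Scx UMI was 29.2% and 33.05% over all tenocyte-like cells. Without a low-depth group of these cells, described later, the Scx ratio turned to 0.03. Mkx stood at 135 CPM (125 to 146) and 106 CPM (97.1 to 116), with a log2 ratio of -0.35 (-0.52 to -0.18), and 68.03% and 56.7% of cells held a UMI of it. Thinned to 1000 UMIs the shares were 10.8% and 10.1%, and the mean over cells of Mkx UMIs per 10000 gave a log2 ratio of -0.14. Tnmd, the surface protein, had a log2 ratio of -0.09 (-0.13 to -0.05), from 2259 to 2124 CPM. Single cells ran from 0 to 81.3 Tnmd UMIs per 10000 with a median of 22.05 when WT-labelled, and from 0 to 84.1 with a median of 20.02 when KO-labelled, so the cells overlapped over nearly the whole range.

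Of Kera, Fmod and Chad, the leucine-rich repeat proteins among the 10, Kera differed most. It stood at 1572 CPM (1538 to 1606) and 1039.6 CPM (1009.9 to 1069.9) in tenocyte-like cells, a log2 ratio of -0.60 (-0.65 to -0.54). Fewer cells carried it, with a Kera UMI in 65.8% (61.02 to 70.4) and 49.7% (44.3 to 55.1) of thinned cells, and the median cell had 14.3 and 8.55 UMIs per 10000. Fmod had a log2 ratio of -0.20 (-0.22 to -0.18). Its lower quartile over cells was 64.5 and 38.8 UMIs per 10000 and its upper quartile 145 and 144, so the libraries parted among cells with little Fmod. Chad went from 1427 to 1218 CPM, which is a log2 ratio of -0.23 (-0.28 to -0.18).

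Thbs4 was the 1 gene of the 10 with a higher level per tenocyte-like cell. It stood at 5513 CPM (5449.7 to 5577) and 6461 CPM (6387 to 6536), with a log2 ratio of 0.23 (0.21 to 0.25). A Thbs4 UMI was present in 96.6% and 96.3% of thinned cells, and a share so near its ceiling cannot show whether more cells carried it. The median cell had 46.8 and 52.2 Thbs4 UMIs per 10000. The other thrombospondin, Comp, stood at 1769.7 and 1651 CPM, which is a log2 ratio of -0.10 (-0.14 to -0.06). Cilp2 had 2081 and 1949 CPM, which is a log2 ratio of -0.09 (-0.14 to -0.05).

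Angptl7 was lower and sat in fewer cells. Its level was 958 CPM (932 to 985) and 654 CPM (630.5 to 678), with a log2 ratio of -0.55 (-0.62 to -0.49). A UMI was present in 36.6% (31.9 to 41.5) and 23.6% (19.2 to 28.4) of thinned cells, and the median cell had 2.65 and 0 UMIs per 10000. The highest cells were alike, at 139 and 131 UMIs per 10000. The top 10% of tenocyte-like cells carried 52.8% and 74.9% of its UMIs, and the next most concentrated gene was Chad, with 46.8% and 58.1%.

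**Figure D3:**
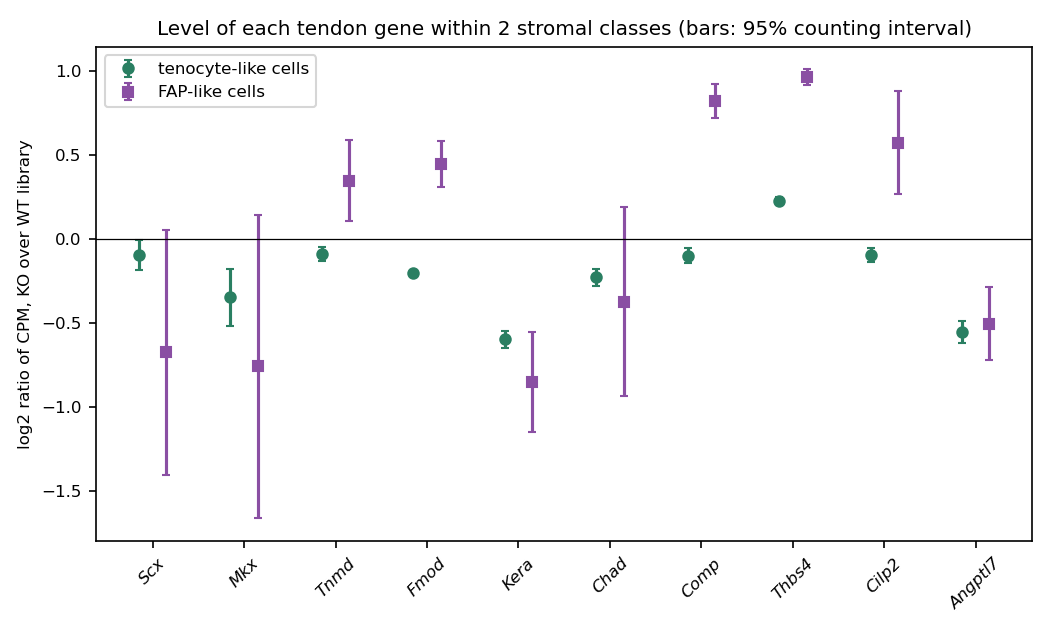
Log2 ratio of CPM, KO-labelled over WT-labelled, for each gene in tenocyte-like cells (circles) and FAP-like cells (squares), with exact 95% counting intervals. In tenocyte-like cells 9 ratios lie below 0, with Kera and Angptl7 lowest, while Comp and Thbs4 stand at 0.82 and 0.96 in FAP-like cells.

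Over FAP-like cells as a whole Thbs4 and Comp were higher in the KO-labelled library and Kera and Angptl7 lower, the last pair from few cells and not in every subset. Thbs4 stood at 374 CPM (363 to 385) and 729 CPM (717 to 741), with a log2 ratio of 0.96 (0.92 to 1.01), and Comp at 90.02 CPM (84.9 to 95.3) and 159 CPM (154 to 165), with a log2 ratio of 0.82 (0.72 to 0.92). More cells carried each of them: the share of thinned cells with a UMI was 15.1% (13.4 to 16.95) and 24.95% (23.1 to 26.9) for Thbs4 and 4.496% (3.55 to 5.61) and 8.41% (7.26 to 9.68) for Comp. Kera had a log2 ratio of -0.85 (-1.15 to -0.55), with a UMI in 59 of 1654 and 39 of 2108 cells. Angptl7 had -0.50 (-0.72 to -0.29), while 5.26% and 5.55% of cells held a UMI of it. Of the 10 genes 5 had an interval above 0 and 2 below, against 12% and 23.2% of 14087 genes, and by 0.5 or more 3 were higher and 4 lower, against 8.11% and 14.1%. Scx and Mkx are among those 4 with only 36 and 32 UMIs and 25 and 21 UMIs, and their intervals reach 0.

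Thbs4 was higher in all 4 FAP-like subsets. It went from 706 to 1245 CPM in Sfrp4 Gdf10 cells, from 218 to 327 in Clu Myoc cells, from 135 to 275 in Hsd11b1 Mme cells and from 94.97 to 177 in Pi16 Dpp4 cells. Comp had a log2 ratio of 0.71 (0.59 to 0.82) in Sfrp4 Gdf10 cells and 0.74 (0.53 to 0.95) in Clu Myoc cells, and it stood at 13.1 CPM or less in the remaining subsets. In Sfrp4 Gdf10 cells 4 of the 10 genes had an interval above 0 and 3 below, against 9.51% and 18.2% of 12749 genes, and 1 of the 3 is Mkx with 17 and 8 UMIs. In Clu Myoc cells the counts were 3 and 3, against 6.57% and 9.4% of 11005. In Hsd11b1 Mme cells 7 had an interval above 0 and 0 below, against 9.22% and 15.1% of 11313. The 9 genes with enough UMIs for a ratio had a median log2 ratio of 1.77, among them Scx with only 1 and 6 UMIs. The share of all genes higher by 0.5 or more was not counted in this subset. Apart from Thbs4 these genes were at 18.7 CPM or less there, from few cells. Fmod had a UMI in 18 of 397 and 18 of 440 cells, and the 12 KO-labelled UMIs of Kera lay in 2 cells. Of thinned cells 1.77% and 0.455% held Fmod, against 7.58% and 15.5% for Thbs4. With every cell given equal weight, the log2 ratio was 0.42 for Chad and 0.06 for Angptl7. For the rest of the 9 it was 0.54 or more. In Pi16 Dpp4 cells 2 intervals lay above 0 (Thbs4 and Comp) and 1 below (Kera, with 9 UMIs and 1 UMI). Of 11402 genes 8.01% and 12.5% did. The depth of Sfrp4 Gdf10 cells differed too, with medians of 7786 and 9451 UMIs, and at a fixed 1000 UMIs per cell Thbs4 was present in 26.9% and 41.2% of them and Comp in 8.36% and 13.4%.

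Fmod, Tnmd and Cilp2 also had ratios above 0 in FAP-like cells, and like Kera and Angptl7 they came from few cells. The top 1% of FAP-like cells carried 68.2% and 68.5% of the Fmod UMIs, and the share of thinned cells with Fmod was 2.55% and 2.57%. For Kera the top 1% carried 70.8% and 89.4% and for Angptl7 66.5% and 59.9%. For Thbs4 the top 1% carried 27.6% and 20.2%, so its UMIs were spread over many more cells. Kera in FAP-like cells lay mostly in the Sfrp4 Gdf10 subset, where it went from 31.9 to 13.6 CPM, which is a log2 ratio of -1.23 (-1.57 to -0.88), against -0.02 (-0.73 to 0.70) in Clu Myoc cells. Angptl7 had -0.84 (-1.16 to -0.52) in Sfrp4 Gdf10 cells and -0.67 (-1.09 to -0.25) in Clu Myoc cells but 0.85 (0.14 to 1.602) in Hsd11b1 Mme cells, where 1.01% and 0.909% of thinned cells held it.

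The stromal level of each gene was then split into what cell shares and what levels within cells contributed to its change. The part from shares follows from the tenocyte-like share of stromal UMIs, 28.8% and 19.7%, and so holds depth per cell as well as cell number. It was the larger part for 7 of the 10 genes. Tnmd went from 663 to 435 CPM over stromal cells, and 87.3% of this came from shares. For Scx the value was 83.7%, for Cilp2 86.7%, for Fmod 73.8%, for Chad 70.2% and for Mkx 59.1%.

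Kera and Angptl7 owed about as much to each part. Kera went from 465 to 212 CPM over stromal cells, 46.8% of it from shares, and Angptl7 from 296 to 144 CPM, 47.3% of it from shares. For the thrombospondins the parts had opposite signs. Comp changed by -145 CPM from shares and by 23.8 CPM from levels. Thbs4 stood at 1855 CPM over stromal cells of both libraries, with a change of -498 CPM from shares and 499 CPM from levels.

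**Figure D4:**
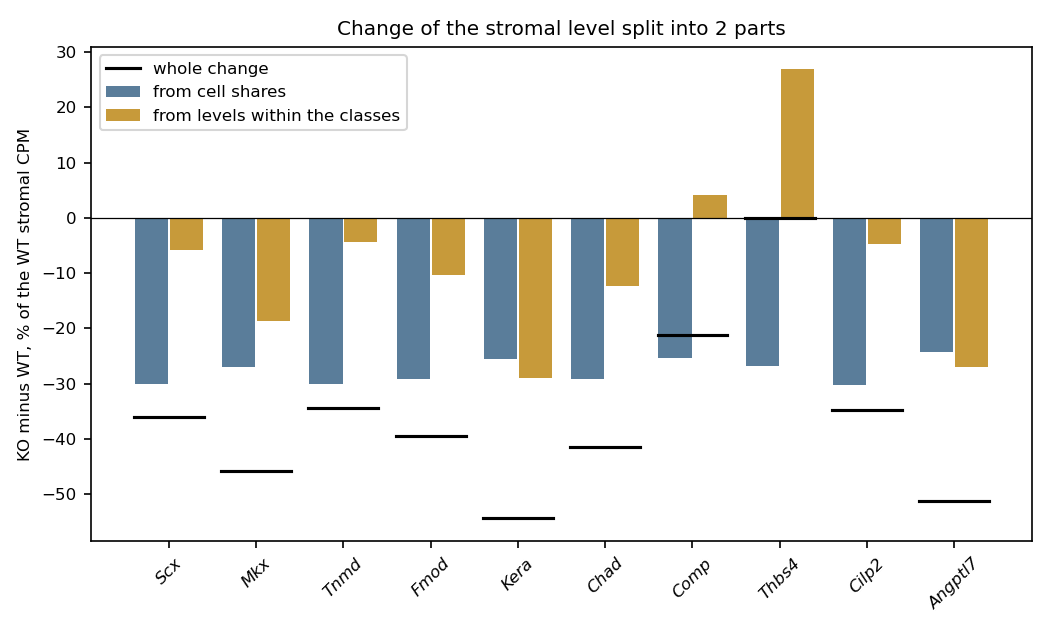
Change of the stromal level of each gene, KO-labelled minus WT-labelled, in percent of the WT-labelled level; blue bars are the part from cell shares, yellow bars the part from levels within tenocyte-like and FAP-like cells, and black lines the whole change. The part from shares lies between -30.2% and -24.3% for every gene, while the part from levels runs from -28.97% for Kera to 26.9% for Thbs4.

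The cells of the tenocyte-like cluster fell into 4 groups when clustered again without the 10 genes, called here by leading genes. The Wif1 Pcolce2 group held 177 and 118 cells, the Col22a1 Chodl group 123 and 120, the Eln Sfrp4 group 46 and 66, and a low-depth group led by Slpi 70 and 59, with medians of 5685 and 3420 UMIs. Wif1 is a secreted Wnt inhibitor, Pcolce2 helps to trim procollagen, Col22a1 is a collagen of the junction between muscle and tendon, and Eln is elastin. Wif1 and Pcolce2 are not particular to the group named for them: when WT-labelled they stood at 716 and 409 CPM there and at 767 and 363 CPM in the Slpi group. The 10 leading genes of the Eln Sfrp4 group were Eln, Dpt, Rbp4, Sfrp4, Dlk1, Ifi203, Mfap5, Hmcn2, Pi16 and Lum, of which Eln, Sfrp4, Dlk1 and Lum also led the Sfrp4 Gdf10 subset of FAP-like cells and Pi16 led the Pi16 Dpp4 subset. None of them is on the list of tendon markers used for naming. They were ranked against the other tenocyte-like cells, however, so markers that the whole cluster shares could hardly lead. Lum is on the wider list of tendon genes given later, and Mfap5 is on the list of FAP markers. A Pdgfra UMI was present in 58.7% and 59.1% of the cells of the group, against 77.9% and 79.6% of FAP-like cells and 22.8% and 26.997% of the whole tenocyte-like cluster. Tendon genes were present as well. Thbs4 had a UMI in 100% and 100% of the cells of the group and Tnmd in 76.1% and 78.8%. For Scx the shares were 67.4% and 68.2%, for Kera 50% and 27.3%, and for Sfrp4 32.6% and 28.8%. With genes of both classes, the group is given no cell type name of its own. The Wif1 Pcolce2 group was 42.5% (37.7 to 47.5) and 32.5% (27.7 to 37.6) of tenocyte-like cells, a difference of -10.04 percentage points (-16.9 to -3.05). The Eln Sfrp4 group was 11.1% (8.21 to 14.5) and 18.2% (14.3 to 22.5), a difference of 7.12 percentage points (1.99 to 12.3). For the Col22a1 Chodl and Slpi groups the interval of the difference held 0, at 3.49 percentage points (-3.201 to 10.2) and -0.573 percentage points (-5.95 to 4.88).

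The 10 genes differed widely between these groups. In WT-labelled cells Comp stood at 2461 CPM in the Wif1 Pcolce2 group and 692 CPM in the Col22a1 Chodl group, Chad at 1915 and 530.5, Fmod at 13392 and 7344, and Angptl7 at 1344 and 234. Thbs4 had the opposite order, 4647 and 7475 CPM, as did Tnmd, 2201 and 2761 CPM. The Eln Sfrp4 group had the lowest levels of Scx, Mkx, Tnmd, Fmod, Kera and Cilp2 in both libraries and the highest Pdgfra level, 82.7 and 90.6 CPM. The Slpi group had the highest levels of Fmod, Chad, Cilp2 and Angptl7 in both libraries. A different mix of the groups therefore gives a different level per tenocyte-like cell.

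Within the Wif1 Pcolce2 group the libraries were close, with log2 ratios from -0.12 for Mkx to 0.10 for Tnmd. Kera stood at 1861 and 1743 CPM there, a log2 ratio of -0.09 (-0.16 to -0.03), and Angptl7 at 1344 and 1261 CPM, -0.09 (-0.17 to -0.01). Of the 10 genes 2 had an interval below 0 and 5 above, against 8.46% and 8.45% of 10508 genes. The first 3 leading genes of this group were Cd74, H2-Eb1 and H2-Aa, genes of antigen-presenting cells, and the macrophage gene C1qa was among the 10. All 7 macrophage markers had UMIs in it, with a summed level of 111 and 169 CPM, against 13431 and 12948 CPM in macrophage-like cells. The 6 dendritic cell markers summed to 54.3 and 151 CPM, against 13306 and 15094 CPM in dendritic-like cells, and the part of these markers in the result was not tested.

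Outside that group Kera and Angptl7 stood lower in KO-labelled cells. In the Col22a1 Chodl group Kera went from 1334 to 789.8 CPM, which is a log2 ratio of -0.76 (-0.87 to -0.65), and Angptl7 from 234 to 73.7 CPM, -1.67 (-2.01 to -1.34), while Thbs4 and Cilp2 had log2 ratios of 0.01 and 0.00. Here 5 of the 10 genes had an interval below 0 and 1 above, against 6.98% and 9.04% of 10064 genes. In the Eln Sfrp4 group Kera went from 698 to 160.5 CPM, which is a log2 ratio of -2.12 (-2.38 to -1.87), and Mkx from 59.3 to 23.6 CPM, whereas Thbs4 went from 5526 to 7779 CPM, 0.49 (0.44 to 0.55). There 4 had an interval below 0 and 1 above, against 7.87% and 7.13% of 9259 genes, and Scrublet, which scores likely doublets, called 5 of the 46 and 1 of the 66 cells. The interval of Angptl7 in this group reached 0, at -0.42 (-0.87 to 0.03).

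The Slpi group was mixed. Kera went from 2086 to 1281 CPM, a log2 ratio of -0.70 (-0.86 to -0.54), and Scx from 875 to 531 CPM, -0.72 (-0.97 to -0.47). Mkx had 0.65 (0.12 to 1.17), the 1 gene higher by 0.5 or more, from 62 and 66 UMIs. Comp, Thbs4 and Chad had log2 ratios of 0.36, 0.39 and 0.33. In all 4 had an interval below 0 and 6 above, against 3.49% and 5.22% of 7487 genes.

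**Figure D5:**
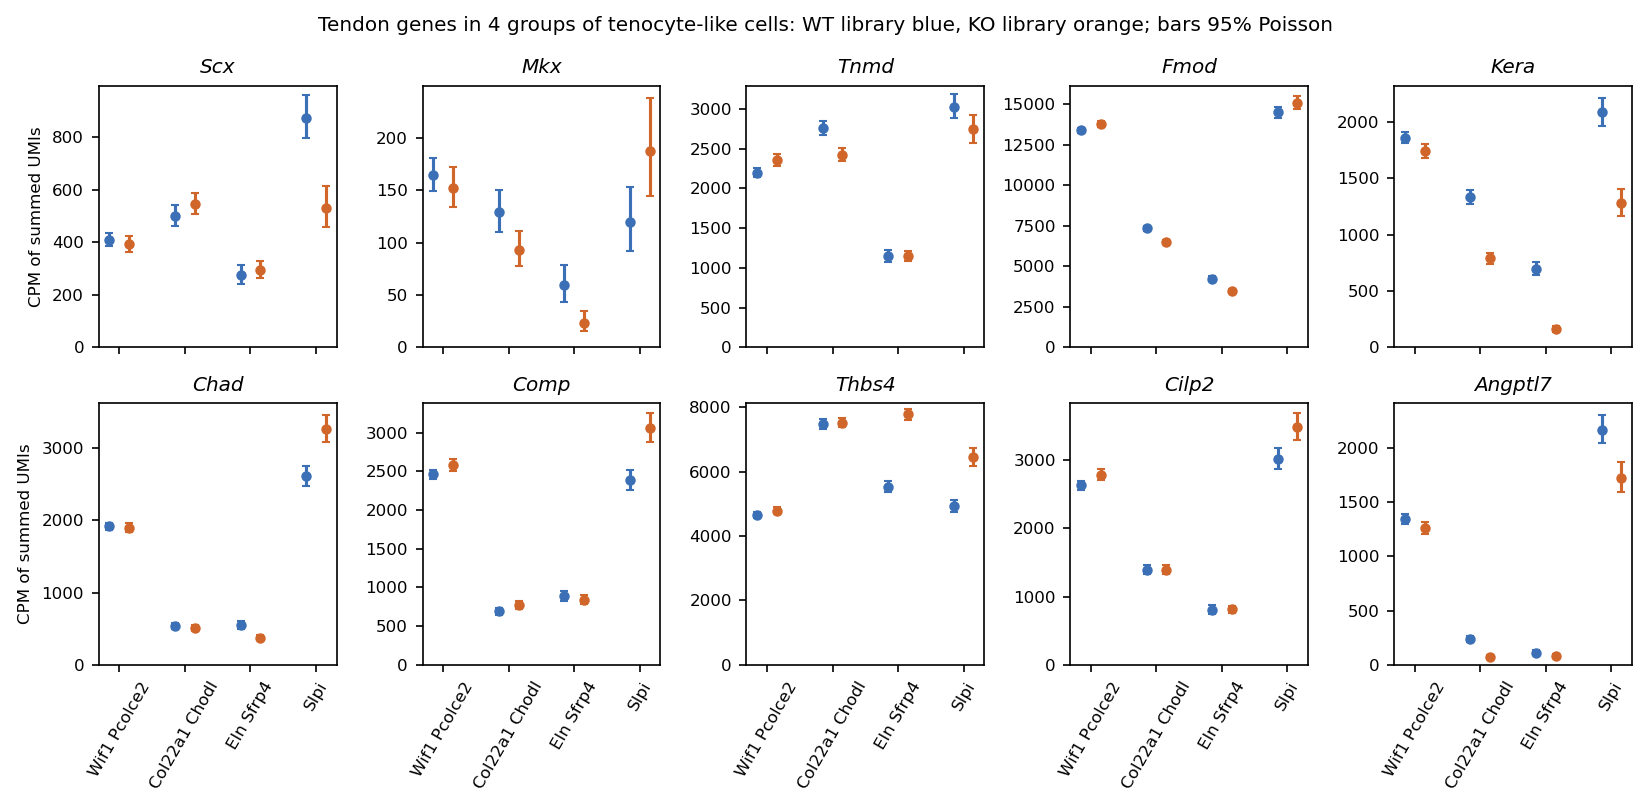
Level of each of the 10 genes in 4 groups of tenocyte-like cells, as CPM of summed UMIs on axes that start at 0; blue points are WT-labelled, orange points KO-labelled, and bars are 95% Poisson intervals. The points of the libraries lie close in the Wif1 Pcolce2 group, while those of Kera and Angptl7 are lower when KO-labelled in the other groups.

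A split of the level per tenocyte-like cell over the 4 groups separated the genes further. Fmod changed by -1378 CPM, 87.7% of it from the shares of the groups, and Chad by -220.4 CPM from shares and 11.3 CPM from levels. For Kera the levels within the groups gave the larger part, -379 CPM against -153 CPM from shares. Angptl7 had -179 CPM from shares and -126 CPM from levels, and Thbs4 had 301 and 647 CPM. With the 4 groups in place of a single tenocyte-like class, and the FAP-like clusters kept apart, the share part of the stromal change was 61.6% for Kera and 76.01% for Angptl7, against 46.8% and 47.3% with both classes whole, and 97.7% for Fmod and 96.4% for Tnmd. How finely tenocyte-like cells are divided thus decides which part is larger for Kera and Angptl7.

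Most of the genes were read together in the same cells. A thinned tenocyte-like cell held UMIs of a median of 6 of the 10 genes in both libraries, and 80.8% and 71.6% of cells held 5 or more. As a description over 416 and 363 cells, which share a library and differ in depth, Pearson's r of the log values was 0.75 and 0.73 for Fmod with Cilp2, and 0.49 and 0.55 after thinning. For Chad with Comp it was 0.73 and 0.60, or 0.43 and 0.52 after thinning. Thbs4 stood apart from these, with 0.00 and 0.02 against Fmod and -0.11 and -0.18 against Kera. The regulators Scx and Mkx had 0.05 and 0.04 with each other. Before thinning, Fmod with Cilp2 and Chad with Comp had the highest r of all pairs in WT-labelled cells. Kera with Chad, for instance, had 0.10 and 0.22, or -0.06 and 0.11 after thinning.

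The genes outside the 10 with the most similar pattern were Arfgef3, Ptx4, Hoxd10, Col11a1 and Crabp1, by Pearson's r with the mean of the 10 over 34 points, 17 cell groups in each library. Their r ran from 0.939 to 0.945. Col11a1, a collagen of fibrils, stood at 1216 and 1156 CPM in tenocyte-like cells, and Crabp1, which binds retinoic acid, at 58.6 and 37.4 CPM, which is a log2 ratio of -0.65 (-0.93 to -0.37). Hoxd10 was near the limit of detection, at 2.87 and 3.13 CPM.

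Other genes of tendon matrix and its control went both ways in tenocyte-like cells. Of a list of 56, 53 had at least 10 UMIs, and 5 of these were lower and 11 higher by 0.5 or more, against the 9.44% and 15.3% of all genes, with a median log2 ratio of 0.06, that of all genes. The same 53 had at least 50 UMIs. Of all genes with that many, 543 of 9250 were lower and 928 higher, which are smaller shares than with at least 10 UMIs. The lowest were Sox9, a regulator of cartilage (from 115 to 67.8 CPM, -0.76 on the log2 scale), Six2 (from 21.6 to 13.6 CPM, -0.67), Wif1 (from 459 to 304 CPM, -0.60) and Pcolce2 (from 262 to 179 CPM, -0.55). The highest were Egr2, a transcription factor that drives collagen genes (from 70.7 to 163 CPM, 1.204), Col22a1 (from 123 to 271 CPM, 1.14), Cilp, a relative of Cilp2 (from 986 to 2080.3 CPM, 1.08), and Aspn, a leucine-rich repeat protein like Fmod and Kera (from 767 to 1585 CPM, 1.05). Of 8 such leucine-rich repeat genes 3 were higher by 0.5 or more and 0 lower, of 10 collagens 2 and 1, and of 10 genes of collagen processing 2 and 1.

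Stress genes and markers of other cells also differed between the libraries in tenocyte-like cells. Of 11 stress genes 6 were higher by 0.5 or more when KO-labelled and 0 lower, against 15.3% and 9.44% of all genes, with a median log2 ratio of 0.58, among them the heat-shock genes Hspa1b (from 292 to 966 CPM, 1.73) and Dnajb1 (from 372 to 892 CPM, 1.26). Fosb was the 1 stress gene below 0, at -0.48 (-0.52 to -0.45), and Fos and Jun stood at 0.01 and 0.04. Of all genes 57.8% had a ratio above 0 in these cells. Of 7 FAP markers 6 did, but their summed level was 19742 and 16798 CPM, of which Dcn, which tendon makes as well, held 17013 and 13473 CPM. Of 6 dendritic cell markers 5 did, with sums of 31.2 and 69.6 CPM, and of 7 Schwann cell markers 7, with sums of 88.9 and 111 CPM. Of 7 macrophage markers 5 did, with sums of 66.3 and 86.3 CPM, and of 7 endothelial markers 1, with sums of 78.5 and 45.6 CPM. The part of these genes and cells in the ratios of the 10 genes was not tested. Markers of fat cells were near 0, at 0.192 and 0.671 CPM for 4 genes, with Adipoq and Cidec at 0.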

How the data were processed

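Gene expression was read from 1 library labelled WT and 1 labelled KO. The authors used the 10x 5′ kit, Cell Ranger (2.1.1 in the submitters' processing notes, 7.0.1 in the study's methods, build mm10), Seurat 4.3.0 and DoubletFinder 2.0.4, and deposited 1 table of the natural log of 1 plus UMIs per 10000 UMIs of a cell. Undoing the log gave whole UMIs, with a largest distance of 0.286 UMI. No mitochondrial gene is listed. No cell was removed; 686 and 633 cells had fewer than 1000 UMIs and stayed out of thinned shares.

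The 10 genes and all lists were chosen with earlier results of these data known. Named genes were the 10, the 5 most alike, and of the wider tendon list up to 4 each way with the largest ratio of 0.5 or more and at least 50 UMIs. Clusters were drawn without the 10 genes (2000 variable genes, 30 principal components, Harmony steps rewritten in numpy, 20 neighbors, Louvain resolution 0.8, and 20 components and resolution 0.3 within tenocyte-like cells) and named by marker lists; clusters that could not be named, such as a low-depth FAP cluster of 259 and 282 cells, stayed out. The tenocyte marker list held the 10 genes beside other markers. Some naming rules were set after clusters had been seen. Shares carry Clopper-Pearson intervals, CPM Poisson intervals, and ratios the interval of the binomial share of UMIs. The parts of a change are averaged over both orders of swapping shares and levels. Scrublet called 1.57% and 1.67% of cells, which were left out only as an alternative. Ratios and intervals were tested on simulated counts with only the counting error that the intervals assume. That test cannot show how the intervals hold where UMIs sit in few cells. The work used scanpy 1.11.5 for Scrublet, igraph 0.11.9 for Louvain, statsmodels 0.14.6, matplotlib 3.10.9, scikit-learn 1.9.0, scipy 1.17.1 and numpy 2.4.6 under Python 3.11.15. The closing section gives the effect of other settings.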

Additional observations from a re-analysis of the deposited data

Results flagged for a closer look

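In 4 genes the libraries differed in opposite directions in the 2 stromal classes, with an interval below 0 in tenocyte-like cells and above 0 in FAP-like cells. The share of all genes that meet both conditions was not counted, so whether 4 is many cannot be told. Taken singly, 9.29% of 12223 genes lay below 0 in tenocyte-like cells and 12% of 14087 above 0 in FAP-like cells. The log2 ratio of the library labelled KO over the library labelled WT was higher in FAP-like than in tenocyte-like cells by 0.92 for Comp, 0.67 for Cilp2, 0.65 for Fmod and 0.44 for Tnmd. Without the Eln Sfrp4 group of the tenocyte-like cluster the intervals of Comp, Cilp2 and Tnmd there reached 0, with log2 ratios from -0.02 to -0.01, and that of Fmod did not. The difference between the classes was not tested, since there is 1 library per genotype. The top 1% of FAP-like cells carried 50.7% and 33.8% of the Comp UMIs, 69.5% and 71.7% of the Cilp2 UMIs and 60.4% and 58.1% of the Tnmd UMIs in those cells.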

How the results depend on the processing

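The difference in the share of tenocyte-like cells among all cells lay between -1.80 and -0.941 points under 9 alternatives, and among stromal cells between -7.15 and -4.68 points under 9; leaving out the Eln Sfrp4 group and counting the low-depth FAP cluster as stromal were added later, and only the count without clusters had an interval that reached 0. The number of the 10 genes whose ratio per tenocyte-like cell lay below 0 with its interval (with the mean over cells, the value alone) was 8 or 9 under 9 alternatives and 4 without the Eln Sfrp4 group, whose leading genes include several that lead FAP-like subsets. No share over all genes was counted under these alternatives. Scx turned to 0.0281 on the log2 scale without the Slpi group, an alternative added once the data had been seen; the other 9 genes kept their sign under all 10. The log2 ratio lay between -0.64 and -0.40 for Kera, -0.77 and -0.42 for Angptl7, -0.46 and -0.14 for Mkx, -0.31 and -0.10 for Chad, -0.23 and -0.10 for Fmod, -0.15 and -0.02 for Comp, -0.12 and -0.02 for Tnmd, -0.12 and -0.01 for Cilp2, and 0.14 and 0.24 for Thbs4. The value nearest 0 came without the Eln Sfrp4 group for 8 of these 9, and for Mkx with the mean over cells. The part from cell shares was the larger for 7 or 8 genes under 3 alternatives, of which none divided the tenocyte-like cells. The Wif1 Pcolce2 group differed by -13.3 to -10.1 points under 4 alternatives, also added once the data had been seen. All 10 genes were highest in tenocyte-like cells by either measure. A minimum of 50 UMIs left 5 lower and 11 higher genes of the wider list, while the shares of all genes fell to 543 and 928 of 9250. No paired analysis was possible because each genotype has 1 library. For Mkx in FAP-like cells, with 25 and 21 UMIs, a difference was not detectable at this depth, and ratios that rest on such counts, as in the FAP-like subsets, have wide intervals.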
